A study of Mus musculus with 19 samples.

Results

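The genes that encode the proteins of the cytosolic ribosome were followed across 19 mouse pancreatic organoid lines, which are cultures of ductal epithelium that grow in a basement membrane gel. The genes were taken by name. A gene was included when its symbol was Rpl or Rps followed by digits, with or without a final a or x, or was Rplp0, Rplp1, Rplp2 or Rpsa. This gave 76 of the 29861 rows of the deposited table, 30 for the small and 46 for the large ribosomal subunit. Values are TPM, a transcript abundance per length that is scaled to 1000000 in every library, so that levels of different genes can be compared within a line. Of the 76 genes, 75 reached a TPM of 1 in at least 6 lines and were tested. The remaining member was not tested.

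The 6 tumor lines (3 female, 3 male) were derived from adenocarcinomas of mice whose genotype included Pdx1-Cre and a Trp53 R172H allele kept silent until Cre removes a stop cassette. The 6 PanIN lines (3 female, 3 male) came from ducts of pancreas that held pancreatic intraepithelial neoplasia, the ductal precursor lesion, in mice whose genotype included Pdx1-Cre and, by the labels, no Trp53 allele. The genotypes of the tumor and PanIN mice are given here in part and hold more than these alleles. The 7 normal lines (5 female, 2 male) were grown out of ducts of wild-type mice, without Cre, whose pancreas was normal by histology. Pdx1-Cre acts throughout the pancreatic epithelium from its progenitors on, so recombination was not limited to ducts. All mice had a C57B6/J background, and the labels give no age. The culture medium did not differ between groups and held nicotinamide, noggin, gastrin, R-spondin, EGF, FGF-10 and a TGF-beta receptor inhibitor. Libraries were made from total RNA after removal of ribosomal RNA, so ribosomal RNA itself was not measured. The labels do not say whether lines shared a mouse or a litter, and p-values therefore measure the spread between lines. In bulk RNA of this kind, fewer cells of a type and less RNA per cell cannot be told apart.

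Ribosomal proteins assemble with ribosomal RNA into a small subunit, which decodes the mRNA, and a large subunit, which joins amino acids. Most are needed in equal copy number, and surplus ribosomal proteins are degraded. Their mRNAs typically begin at a C followed by an unbroken run of pyrimidines, the 5' terminal oligopyrimidine (TOP) tract, through which mTORC1 and Larp1 adjust their translation in response to growth signals. Outside the ribosome, Rpl5 and Rpl11 bind Mdm2 together with the 5S ribosomal RNA and so link ribosome assembly to p53.

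The start of the transcript is shown for 7 genes because the TOP tract is the sequence feature that this gene family is known to share. The windows run from 25 bases before to 20 bases from the annotated start in RefSeq's GRCm38.p6 table, matched by symbol. They are printed 5' to 3' on the gene's own strand. Capitals mark a pyrimidine tract that begins with C at the annotated start or within 5 bases of it and continues with at least 5 C or T.
Rpl14, chr9:120571492-120571536, plus strand: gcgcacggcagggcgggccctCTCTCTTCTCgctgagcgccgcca
Rps6, chr4:86857348-86857392, minus strand: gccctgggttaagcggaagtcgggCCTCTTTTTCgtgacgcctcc
Rpl27a, chr7:109519170-109519214, plus strand: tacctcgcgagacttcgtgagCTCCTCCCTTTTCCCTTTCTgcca
Rplp2, chr7:141447626-141447670, plus strand: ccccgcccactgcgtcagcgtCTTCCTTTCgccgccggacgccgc
Rps27, chr3:90213629-90213673, minus strand: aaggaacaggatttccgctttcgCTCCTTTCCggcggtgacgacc
Rpl5, chr5:107900503-107900547, plus strand: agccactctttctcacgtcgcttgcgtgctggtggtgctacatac
Rpl11, chr4:136053374-136053418, minus strand: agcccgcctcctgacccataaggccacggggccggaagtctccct

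Rpl14, Rps6, Rpl27a, Rplp2 and Rps27 hold such a tract in the window, and the windows of Rpl5 and Rpl11 hold none at these annotated starts. Of the 55 members matched in the RefSeq table, 24 (43.6%) had a tract, against 3229 of 27025 genes (11.9%). The longest of those printed, in Rpl27a, spans 20 bases. Over the 300 bases around the start, the ETS-type motif CCGGAAG, searched on both strands, was found in 23 of 55 members (41.8%) and in 9.93% of all genes. A copy is visible in the Rpl11 window. The YY1-type motif AAGATGG, also on both strands, was found in 9 members (16.4%) and in 7.28% of all genes, and TATAAA in 6 members (10.9%) and in 15.7% of all genes. These matches are descriptions of letters and not of bound sites.

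Ribosomal protein mRNAs were among the most abundant in every line. Their median level over lines was 1700 TPM; 63 of the 76 members averaged at least 1000 TPM, 8 lay between 500 and 1000, and 5 lay below 500. The highest mean levels belonged to Rps12 (4483 TPM), Rps2 at the mRNA entry side of the small subunit (3971 TPM), Rpl41, the smallest ribosomal protein (3702 TPM), Rpl23a (3133 TPM), Rps27 (3082 TPM) and Rplp0, the base of the stalk that recruits translation factors (2974 TPM). Among the lowest were Rpl22 (244.7 TPM), Rps15a (181.4 TPM) and Rpl34 (45.4 TPM). For Rpl34, a row for its copy Rpl34-ps1 averaged 1223 TPM, so the division of reads between these near-identical sequences is uncertain. Many ribosomal protein genes have processed copies elsewhere in the genome, and the levels of single members carry this uncertainty.

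Summed over the 76 members, ribosomal protein transcripts made up 14.3% ± 0.90 of TPM in tumor lines (SD, n = 6), 13.8% ± 0.40 in PanIN lines (n = 6) and 12.6% ± 1.03 in normal lines (n = 7). In tumor lines the share had a lowest value of 13.4%, a median of 14.0% and a highest value of 15.9%. In PanIN lines these values were 13.5%, 13.6% and 14.6%, and in normal lines 10.6%, 12.8% and 13.9%. The groups overlapped, with normal 5 above tumor 3 and tumor 5 highest of all, while normal 12 lay apart at the low end. The small-subunit sum divided by the large-subunit sum was nearly constant, at 0.756 ± 0.011 in tumor, 0.756 ± 0.006 in PanIN and 0.760 ± 0.012 in normal lines.

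TPM is a share, and part of the difference between groups moved with other transcripts. For 11 expressed rows, some of which carry mitochondrial gene names, the deposited table holds no comparison, and these rows took 21.4% ± 3.63 of TPM in tumor lines, 25.1% ± 1.67 in PanIN lines and 26.2% ± 2.11 in normal lines. Tumor 5 and tumor 8, which had the highest ribosomal protein shares, had the lowest shares in these rows, at 16.3% and 18.2%. With every line rescaled to the same total without the 11 rows, the ribosomal protein share was 18.2% ± 0.51 in tumor, 18.4% ± 0.44 in PanIN and 17.1% ± 1.15 in normal lines. On that scale tumor and PanIN lines covered almost the same range, and only normal 5 among normal lines reached into it.

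**Figure D1:**
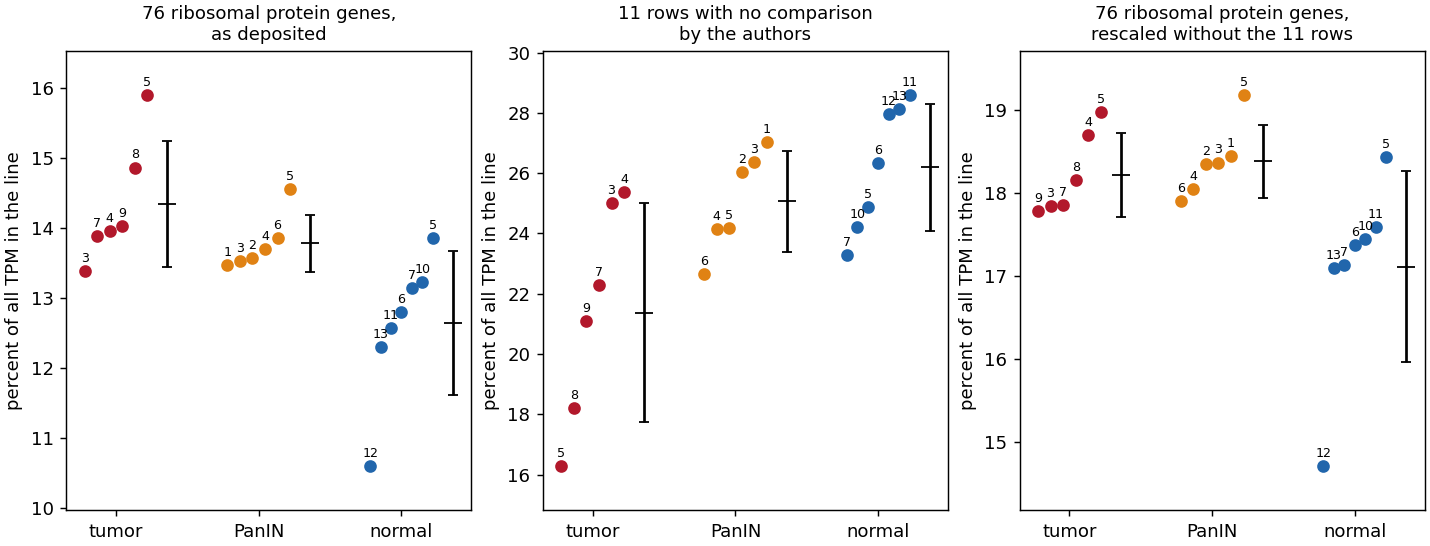
Percent of all TPM per line, with tumor, PanIN and normal lines from left to right, numbered by line, and the mean with SD beside each group. The left panel shows the 76 ribosomal protein genes as deposited (normal 12 lowest at 10.6%, tumor 5 highest at 15.9%), the middle panel the 11 rows without a comparison, and the right panel the 76 genes after rescaling without those rows (normal 12 at 14.7%). The vertical axes do not start at 0.

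Between tumor and normal lines, ribosomal protein mRNAs were higher across both subunits, by small amounts. By limma on log2(TPM + 1), with adjustment over all 12500 tested genes and calls at an adjusted p below 0.05, 34 of 75 members rose (45.3%) and 0 fell, where 17.8% of all tested genes rose and 14.4% fell. No member fell at an unadjusted p below 0.05 either, and 47 were higher at that level. The share of all tested genes at that level was not counted. The median log2 change was 0.16 over the members and 0.039 over all genes, and the members ranged from -0.052 to 0.52. The large subunit had 23 of 45 members called (median 0.17) and the small subunit 11 of 30 (median 0.14). Of the members, 73 of 75 had positive changes as deposited and 73 under median-of-ratios scaling. The number was 65 after rescaling without the 11 rows and 49 after quantile normalization. The share of all genes with positive changes was not counted. With each line centred on its own members' median, which sets the family near 0 by construction, the median change was -0.060 against -0.18 for all genes.

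The number of calls moved with the scale and with a pair of lines, among the members and among all genes. After rescaling without the 11 rows, 22 members rose and 0 fell, all 22 among the 34, against backgrounds of 11.4% higher and 19% lower; the members' median was then 0.066 and that of all genes -0.043. Without tumor 5 and tumor 8 together, an alternative chosen after seeing the data because these lines had the lowest share in the 11 rows, 7 of 75 members were called higher and 0 lower, where 4.94% of all tested genes were called higher and 6.05% lower. Lines also fell into 3 series of library identifiers in the column headers. The median member change between tumor and normal lines was 0.072 in the first series (1 tumor against 3 normal lines, 65 of 75 members positive). It was 0.20 in the second (3 against 2 lines, 70 positive) and 0.25 in the third (2 against 2 lines, 74 positive). Over all tested genes the medians were -0.055, 0.087 and 0.059. After rescaling without the 11 rows the members' medians were 0.082, 0.059 and 0.16, with 69, 51 and 71 positive. The authors' deposited table calls 30 members higher and 0 lower in this comparison, where it calls 16.2% of its genes higher and 16.4% lower.

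The stalk of the large subunit, where elongation factors dock, is formed by Rplp0 and the paired acidic proteins Rplp1 and Rplp2. Rplp0 had a lowest, median and highest level of 2943, 3190 and 3704 TPM in tumor lines, 2876, 3032 and 3214 TPM in PanIN lines, and 2418, 2735 and 2811 TPM in normal lines. Every tumor line and every PanIN line lay above every normal line. In the tumor lines Rplp0 rose by a log2 change of 0.27 (SE 0.064, limma adjusted p = 0.00441). Without tumor 5 and tumor 8 together the Rplp0 change was 0.19 and was not called (limma adjusted p = 0.0508). Rplp2 averaged 2007 ± 125 TPM in tumor and 1788 ± 140 TPM in normal lines, a rise of 0.17 (limma adjusted p = 0.0383) that was not called after rescaling without the 11 rows (limma adjusted p = 0.287). Rplp1 averaged 2911 ± 294 TPM in tumor and 2671 ± 287 TPM in normal lines and was not called (0.13, limma adjusted p = 0.207).

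Of the 5S particle, Rpl11 rose and Rpl5 did not pass the test. Rpl11 had 1674, 1748 and 2084 TPM (lowest, median, highest) in tumor lines and 1207, 1478 and 1658 TPM in normal lines. The groups did not overlap, with tumor 3 and normal 7 closest to each other, and the log2 change was 0.29 (SE 0.076, limma adjusted p = 0.00776). Without tumor 5 and tumor 8 together the Rpl11 change was 0.21 and was not called (limma adjusted p = 0.0836). Rpl5 had 1146, 1196 and 1268 TPM in tumor lines and 973, 1123 and 1191 TPM in normal lines. These ranges overlapped, and the change of 0.12 (SE 0.050) had a limma adjusted p of 0.0673.

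Among small-subunit proteins, the largest called rises included those of Rps2 and Rpsa. Rpsa, a small-subunit protein also known as a laminin receptor, had 1715, 1788 and 2125 TPM in tumor lines and 1224, 1447 and 1721 TPM in normal lines. Only normal 5 reached above the lowest tumor line. Its log2 change of 0.34 (SE 0.078, limma adjusted p = 0.00366) was called in each alternative tried except the fit with line numbers as a block. Rps2 averaged 4454 ± 553 TPM in tumor and 3469 ± 500 TPM in normal lines, a rise of 0.36 (limma adjusted p = 0.0141). The Rps2 call was lost without tumor 5 and tumor 8 together. Rps6, the substrate of the S6 kinases downstream of mTORC1, rose by 0.26 (limma adjusted p = 0.00468), with 1787 ± 101 TPM in tumor and 1494 ± 128 TPM in normal lines, and lost its call under quantile normalization.

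Among large-subunit proteins the largest called rises were those of Rpl34, Rpl14, Rpl8, Rpl7a and Rpl41. Rpl14 had 1306, 1587 and 1837 TPM in tumor lines and 1101, 1202 and 1326 TPM in normal lines. Tumor 4 was the only tumor line inside the normal range. The log2 change was 0.38, or 30.3% (SE 0.081, limma adjusted p = 0.00259), and the call was lost in no alternative except the fit with line numbers as a block. Rpl8, near the peptidyl transferase centre, averaged 2045 ± 313 TPM in tumor and 1586 ± 133 TPM in normal lines (0.36, limma adjusted p = 0.00616). Rpl7a averaged 2632 ± 256 and Rpl41 4085 ± 429 TPM in tumor lines, against 2116 ± 197 and 3335 ± 468 TPM in normal lines (0.31 and 0.30, limma adjusted p = 0.00652 and 0.0199). The Rpl41 call was lost without tumor 5 (or without tumor 8) alone, and those of Rpl8 and Rpl7a without both.

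Rpl34 had the largest log2 change of the family, 0.52 (SE 0.13, limma adjusted p = 0.00563), at a low level. Its lowest, median and highest values were 39.9, 56.2 and 74.8 TPM in tumor lines, 35.6, 37.9 and 53.5 TPM in PanIN lines, and 34.9, 37.7 and 43.8 TPM in normal lines. Tumor 5 and tumor 8 were highest, and tumor 4 lay inside the normal range. Within the identifier series the change was -3.9e-05 in the first, 0.79 in the second, which holds tumor 5 and tumor 8, and 0.41 in the third. Without those 2 lines it was 0.33 (limma adjusted p = 0.0666). Rpl34-ps1, which had 1254 ± 87.1 TPM in tumor and 1183 ± 96.1 TPM in normal lines, was not called (0.085, limma adjusted p = 0.306). With the TPM of the pair added, the change was 0.10 (limma adjusted p = 0.204), and the sum was not called.

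The tumor and normal ranges did not overlap for 9 members, all higher in tumor lines, among them Rpl11, Rpl13a, Rpl27a, Rpl30, Rplp0, Rps25, Rps26 and Rps27a. This is 9 of 75 members and 0 in the other direction, where 2.9% of all tested genes were separated with tumor lines higher and 4.36% with tumor lines lower. At the other end, the 2 members with negative changes were Rpl39, which lines the exit tunnel, and Rpl23, at the face that meets the small subunit. Rpl39 had 1570, 1680 and 1743 TPM in tumor lines and 1506, 1735 and 1817 TPM in normal lines. Rpl23 had 1377, 1403 and 1432 TPM in tumor lines and 1335, 1457 and 1562 TPM in normal lines. Both ranges overlapped and neither change was called as deposited (-0.036 and -0.052, limma adjusted p = 0.679 and 0.432), while both were called lower under quantile normalization, where 15.9% of all genes were called higher and 15.7% lower. Rps27 (0.048), Rpl10, which is loaded late in large-subunit maturation (0.088), and Rpl22 (0.090) were not called, with limma adjusted p-values of 0.585, 0.302 and 0.174. Rpl3, a large-subunit protein that reaches the peptidyl transferase centre, was called (0.17, limma adjusted p = 0.0424) but lost its call in 20 of 35 alternatives.

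**Figure D2:**
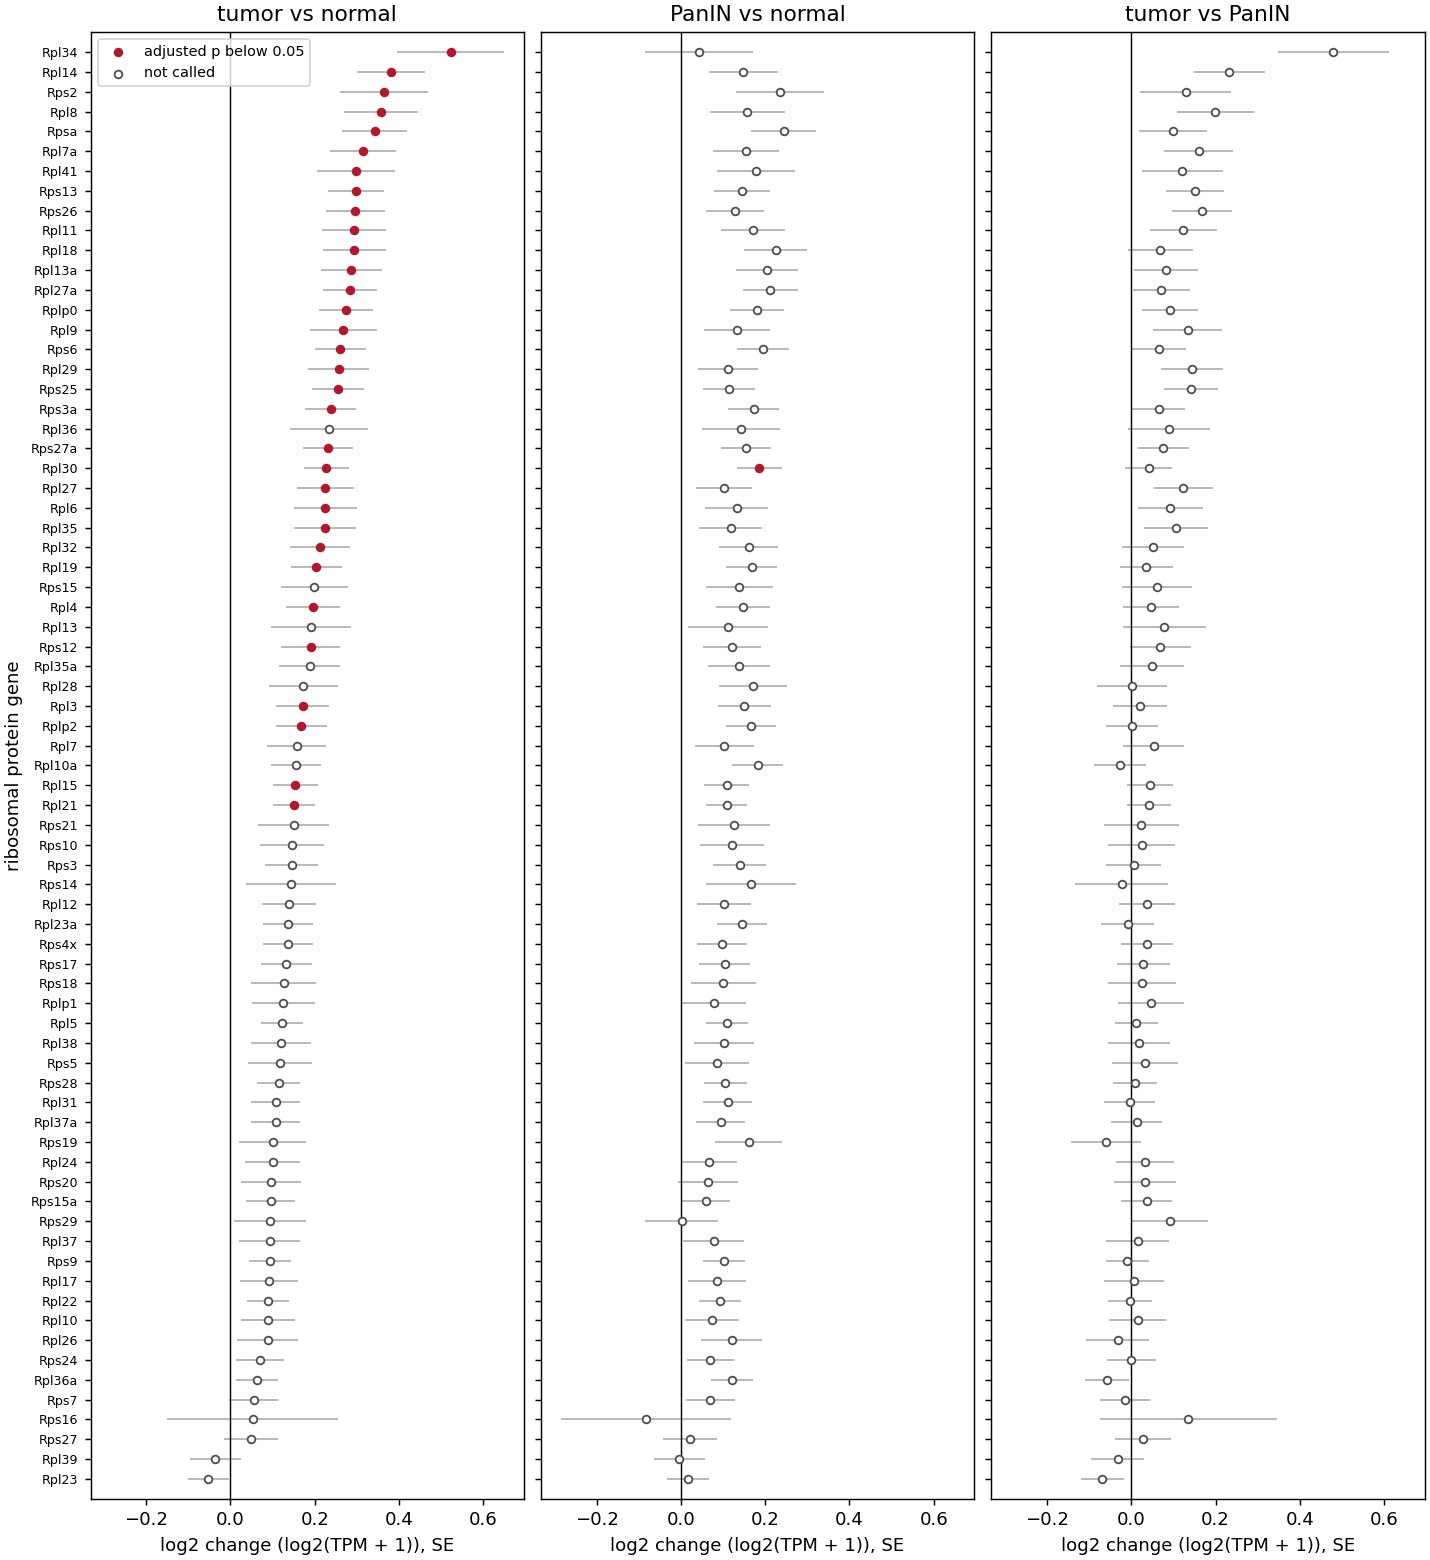
Log2 change of TPM + 1 with its SE for 73 of the 75 tested ribosomal protein genes, ordered by the tumor vs normal change, in tumor vs normal (left), PanIN vs normal (middle) and tumor vs PanIN (right). Filled points have a limma adjusted p below 0.05: 32 genes on the left, Rpl30 in the middle and 0 on the right.

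Members with and without a TOP tract at the annotated start are set side by side as a description, since their difference was not tested. A tract further from that start was counted as absent, so the members without one are not shown to lack it. Between tumor and normal lines, where 17.8% of all tested genes rose, 12 of the 24 members with a tract were called higher (median log2 change 0.17), as were 12 of the 31 without (median 0.15). Between PanIN and normal lines the medians were 0.12 and 0.12. RNA levels were measured here, and translation of these mRNAs was not.

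Between PanIN and normal lines few members were called by limma on TPM as deposited, where their share was below that of all genes. Only Rpl30 rose and 0 members fell (1 of 75, or 1.33%), where 3.1% of all tested genes rose and 3.68% fell. At an unadjusted p below 0.05, 25 members were higher and 0 lower. The shares of all tested genes at that level, or with a positive change, were not counted. The median log2 change was 0.12 over the members and -0.029 over all genes, 73 of 75 members had positive changes, and the range was -0.083 to 0.24. The members' median stayed positive under rescaling without the 11 rows (0.099), median-of-ratios scaling (0.16) and quantile normalization (0.042), and was -0.0097 when lines were centred on the members' median. By identifier series it was 0.026 in the first (3 against 3 lines) and 0.078 in the second (1 against 2). It was 0.31 in the third (2 against 2), the series that holds normal 12 and normal 13. Over all tested genes the medians by series were -0.073, 0.042 and -0.0048. The authors' deposited table, in which 5.53% of genes are called higher and 4.94% lower, calls 16 of 75 members higher and 0 lower. There, the share of members called higher was above that of all genes.

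Rpl30, a large-subunit protein that in yeast regulates the splicing of its own transcript, had 1477, 1573 and 1686 TPM in tumor lines, 1479, 1525 and 1627 TPM in PanIN lines, and 1160, 1364 and 1422 TPM in normal lines. All tumor and all PanIN lines lay above all normal lines, and normal 12 was low within its group. The PanIN change was 0.19 (SE 0.053, limma adjusted p = 0.0397) and its call was lost in 20 of 35 alternatives, 12 of them with a single line left out. The members next in order of p were Rpl27a (0.21, limma adjusted p = 0.0544), Rps6 (0.20, limma adjusted p = 0.0646) and Rpsa (0.24, limma adjusted p = 0.0658). After rescaling without the 11 rows Rpsa was the 1 member called higher (0.22, limma adjusted p = 0.0343) and 0 were lower, against 2.86% and 4.03% of all genes. Under median-of-ratios scaling 5 of 75 members (6.67%) were called higher (Rpsa, Rpl30, Rps6, Rpl18 and Rpl10a), against 4.25% of all genes. The PanIN and normal ranges were separate for 5 members, all higher in PanIN lines (Rpl13a, Rpl3, Rpl30, Rplp0 and Rps9), where 1.26% of all tested genes were separated in that direction and 1.79% in the other. Rpl3 was the most even of these, at 1764 ± 16.2 TPM in PanIN lines and 1593 ± 119 TPM in normal lines, with a change of 0.15 (limma adjusted p = 0.177).

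Between tumor and PanIN lines 0 members were called by limma in either direction, where 0.392% of all tested genes rose and 1.21% fell, and no member had separate ranges, where 0.832% of all tested genes were separated with tumor lines higher and 0.968% with tumor lines lower. At an unadjusted p below 0.05, 6 members were higher and 0 lower, and the share of all genes at that level was not counted. The authors' deposited table calls only Rpl34 higher, against 5.1% of its genes higher and 6.55% lower. The median log2 change was 0.042 for the members and 0.055 for all genes. It turned to -0.026 after rescaling without the 11 rows, with 28 members positive and 47 negative, and to -0.018 under median-of-ratios scaling. The smallest p-values belonged to Rpl34 (0.48, limma adjusted p = 0.0602), Rpl14 (0.23, limma adjusted p = 0.0884), Rps26 at the mRNA exit of the small subunit (0.17, limma adjusted p = 0.128) and Rps25 (0.14, limma adjusted p = 0.149). Rps26 had 1800, 1880 and 2079 TPM in tumor lines and 1548, 1641 and 1951 TPM in PanIN lines. PanIN 5 and PanIN 6 lay within the tumor range and the other 4 PanIN lines below it.

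**Figure D3:**
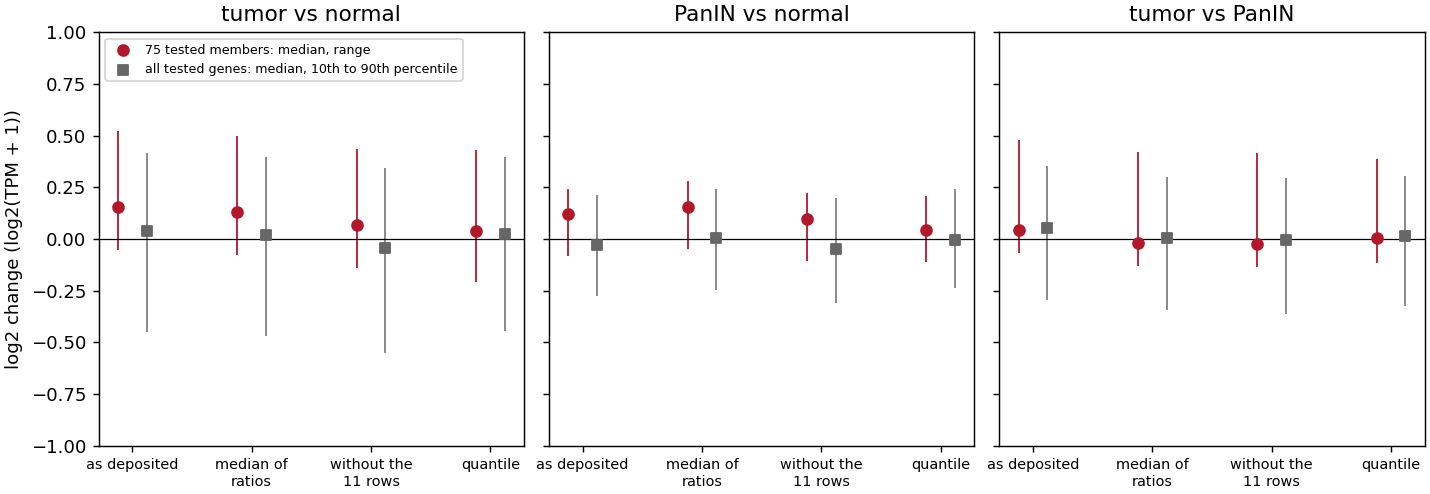
Log2 change under 4 scalings of TPM in the 3 comparisons. Red points and lines give the median and range of the 75 tested ribosomal protein genes, and grey squares and lines the median and the 10th to 90th percentile of all tested genes; in tumor vs normal the members' median was 0.16 as deposited, 0.13 by median of ratios, 0.066 without the 11 rows and 0.040 after quantile normalization.

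Part of the members' spread from line to line was shared among them. Centring on the members' own median lowers such spread for any set of genes that shares a shift of the line. Other genes were not centred in this way, so the values do not show a trait of this family. The SD over the 19 lines of a member's log2 level had a median of 0.133 as deposited and of 0.0815 after each line was centred on its own members' median. Centring lowered the SD of 66 of the 75 members and left 56 below 0.1. The median member was highest in tumor 5 (0.28 above the mean of the lines) and lowest in normal 12 (0.34 below it). The members that departed most from the rest were Rps16 (SD 0.38), Rpl34 (0.26), Rpl23 (0.16), Rps14 (0.15) and Rps29 (0.15). As deposited Rpl23 varied little (SD 0.067), and centring raised its SD. Rps16, a small-subunit protein, had 501, 676 and 892 TPM in tumor lines, 502, 602 and 750 TPM in PanIN lines, and 357, 684 and 1135 TPM in normal lines. Its lowest value (normal 13) and its highest (normal 7) were both in normal lines, so its spread did not follow the groups, and it was not called in any comparison.

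With each line centred on the members' median, few members were called between tumor and normal lines. On that scale Rpl14, Rpl34 and Rpsa were called higher (3 of 75 members, 4%), and Rpl39, Rpl23, Rps7, Rpl36a and Rps27 lower (5 of 75, 6.67%). Of all tested genes 4.26% were called higher and 30.6% lower. The scaling holds the members near their own median and lowers the change of every gene by the same amount. The shares of members and of all genes therefore cannot be compared on this scale. As deposited, none of the 5 lower members was called, and Rps7 had 1500 ± 64.1 TPM in tumor and 1446 ± 110 TPM in normal lines. In the map of relative levels, Rpl23 and Rpl39 were lowest in tumor 5 and highest in normal 13.

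**Figure D4:**
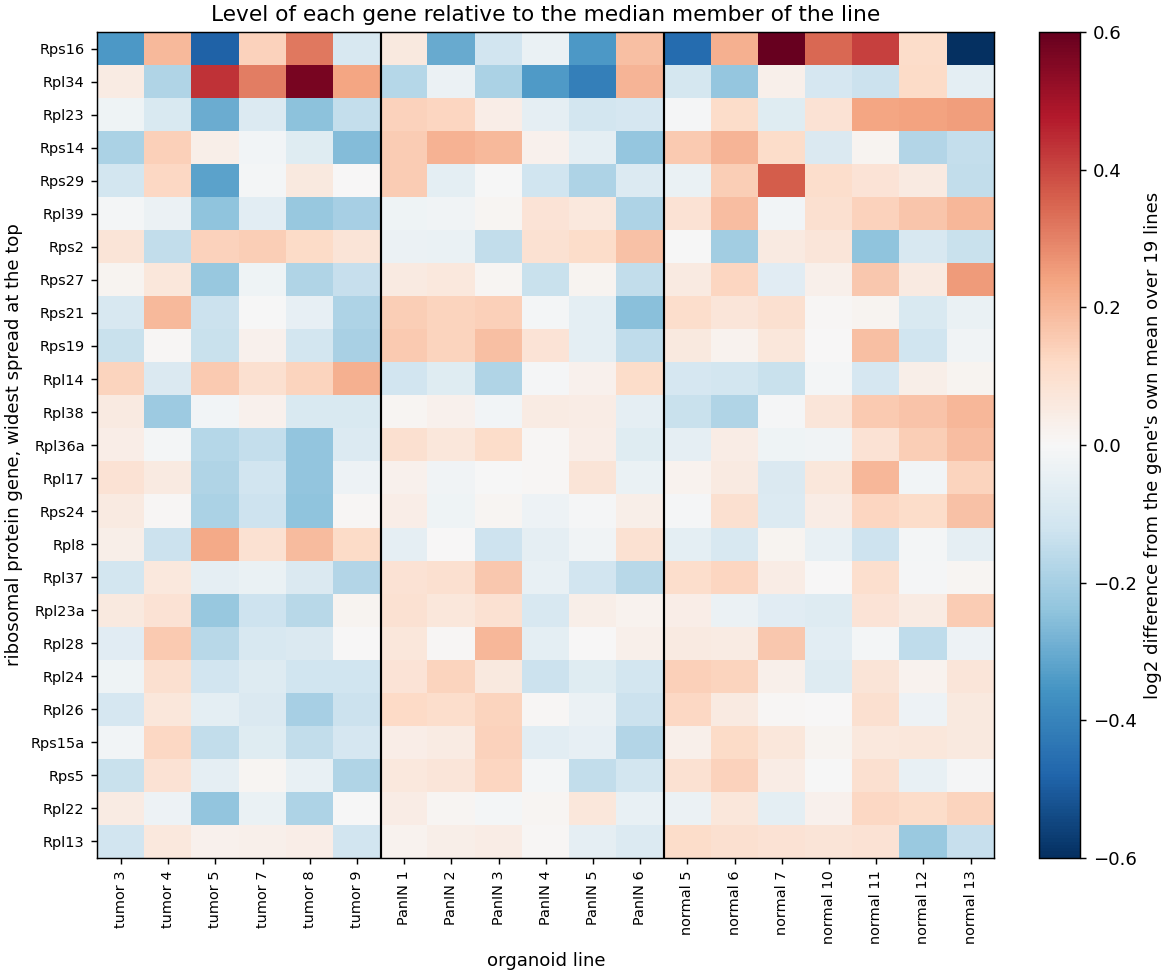
Level of the 25 ribosomal protein genes with the widest spread, relative to the median member of the line, as the log2 difference from the gene's own mean over 19 lines (red higher, blue lower; colours end at 0.6 in either direction, and values beyond are drawn in the end colour). Lines run from tumor through PanIN to normal; Rps16 varies most, from -0.66 in normal 13 to 0.88 in normal 7.

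Some ribosomal proteins carry names outside the pattern, and 8 of 11 such genes or relatives were tested. Rpl3l, Rpl10l and Rpl39l, paralogs known from muscle or testis, were listed at 0 to 0.11 TPM in all lines. Between tumor and normal lines, where 17.8% of all tested genes rose and 14.4% fell, 3 of the 8 rose and 0 fell, Rpl36al and Rsl1d1 among them. Rpl36al averaged 766 ± 80.1 TPM in tumor and 627 ± 40.9 TPM in normal lines (0.29, limma adjusted p = 0.00801). Rsl1d1, a nucleolar protein, averaged 196 ± 31.9 TPM in tumor and 154 ± 14.0 TPM in normal lines (0.33, limma adjusted p = 0.0125). The calls of Rpl36al and Rsl1d1 were lost without tumor 5 and tumor 8 together (limma adjusted p = 0.0734 and 0.119). Not called were Fau, a ubiquitin-like fusion with a small-subunit protein (0.18, limma adjusted p = 0.0922), Rpl7l1 (0.23, limma adjusted p = 0.0584) and Rsl24d1 (0.20, limma adjusted p = 0.0701), which both act in assembly of the large subunit.

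Rps27l, a paralog of Rps27 that is a known p53 target, had a pattern unlike Rps27. It had 759, 815 and 994 TPM in tumor lines, 917, 1039 and 1152 TPM in PanIN lines, and 734, 769 and 876 TPM in normal lines. All PanIN lines lay above all normal lines, and of the tumor lines only tumor 9 reached into the PanIN range. Between PanIN and normal lines Rps27l rose by 0.38, or 30.2% (SE 0.074, limma adjusted p = 0.00348), and the call was lost in 1 of 35 alternatives, the fit with line numbers as a block. Between tumor and PanIN lines the change was -0.30 (SE 0.077), with a limma adjusted p of 0.05001 that missed the threshold for TPM as deposited and was 0.00962 after rescaling without the 11 rows. The authors' deposited table calls Rps27l lower in this comparison (log2 fold change -0.36, adjusted p = 0.000864). Between tumor and normal lines it was 0.076 (limma adjusted p = 0.449). In each of the 3 identifier series the PanIN change was positive (0.20, 0.55 and 0.56) and the tumor vs PanIN change negative (-0.31, -0.49 and -0.32). Rps27 itself had 3135 ± 109 TPM in tumor, 3079 ± 190 TPM in PanIN and 3040 ± 263 TPM in normal lines.

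Rpl22l1, a paralog whose level Rpl22 is known to restrain in mouse, had a negative change in all 3 comparisons, with none called as deposited. It had 454, 505 and 601 TPM in tumor lines, 411, 536 and 613 TPM in PanIN lines, and 522, 559 and 743 TPM in normal lines. The ranges overlapped, and the tumor vs normal change of -0.20 (SE 0.095, limma adjusted p = 0.107) was called only on some scales, with -0.29 (limma adjusted p = 0.0301) after rescaling without the 11 rows. Rpl22 had 243, 249 and 260 TPM in tumor lines and 209, 239 and 245 TPM in normal lines, and was not called (limma adjusted p = 0.174). A relation between the levels of Rpl22 and Rpl22l1 was not tested.

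**Figure D5:**
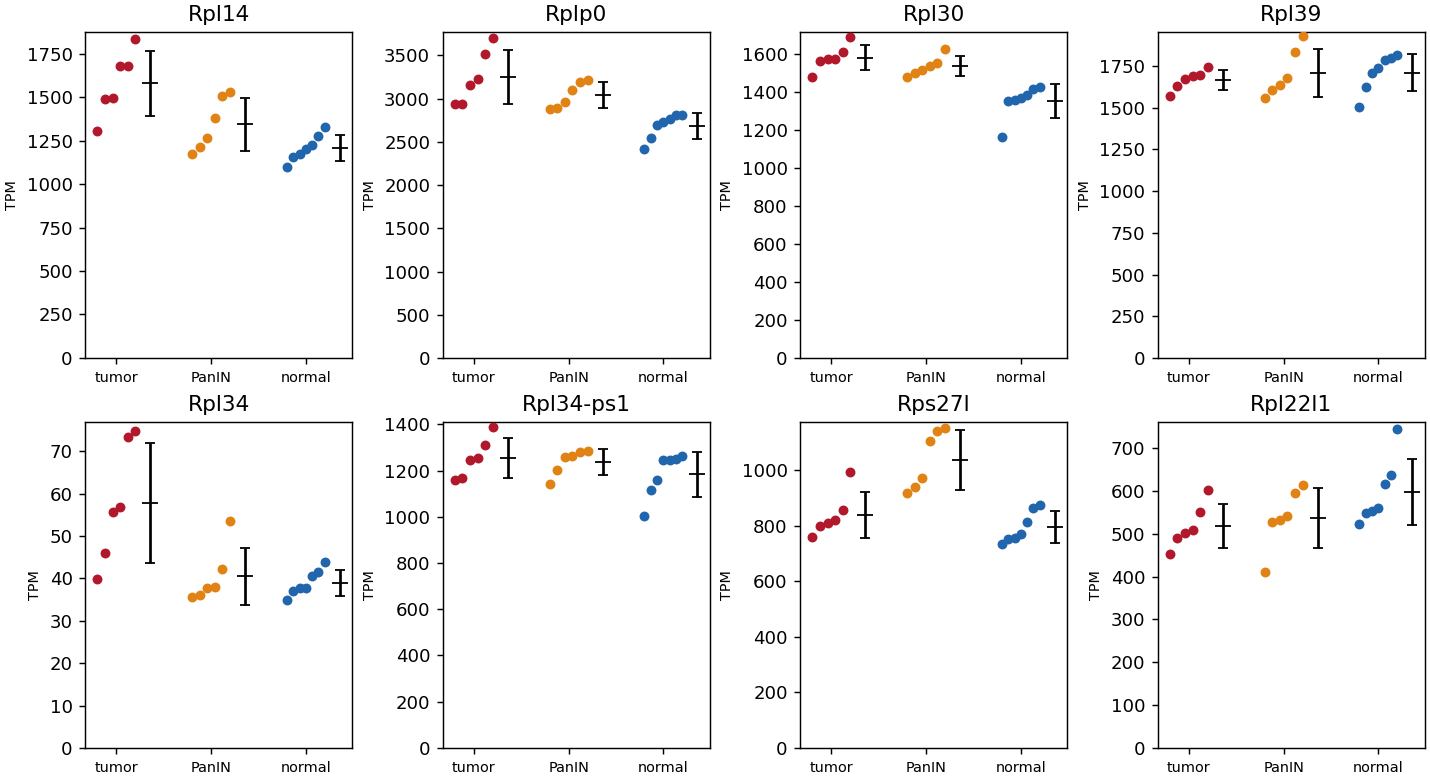
TPM per line, with mean and SD, for 8 genes in tumor, PanIN and normal lines (left to right in each panel; axes start at 0). Rplp0 and Rpl30 separate tumor and PanIN lines from normal lines, the Rpl39 ranges overlap, Rpl34 is spread in tumor lines while its copy Rpl34-ps1 is not, and Rps27l is highest in PanIN lines (917 to 1152 TPM).

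Genes that work with the ribosome were compared in the same fit. Between tumor and normal lines, where 17.8% of all tested genes rose and 14.4% fell, 6 of 13 subunits of eIF3, the scaffold of initiation, rose and 0 fell, with Eif3i at 329 ± 37.3 TPM in tumor and 266 ± 17.7 TPM in normal lines (0.30, limma adjusted p = 0.0033). Of the other initiation factors 7 of 18 rose and 0 fell, including the cap-binding protein Eif4e (0.40, limma adjusted p = 0.00419) and the eIF2 subunit Eif2s2 (0.35, limma adjusted p = 0.00822). Of the elongation factors 4 of 9 rose and 0 fell, with Eif5a, which helps ribosomes through prolines, changing most (744 ± 194 TPM in tumor and 440 ± 45.6 TPM in normal lines; 0.72, limma adjusted p = 0.00228). Of 17 other genes known for TOP mRNAs 5 rose and 0 fell, among them Btf3 (0.24, limma adjusted p = 0.00562). Of the TOP and promoter regulators 3 of 18 rose (Akt1s1, an mTORC1 component, Larp1, which binds TOP tracts, and Yy1) and 0 fell. Of 7 snoRNA host RNAs Snhg3 and Snhg1 rose. Fewer genes of these lists were called after rescaling without the 11 rows, where 11.4% of all tested genes were higher and 19% lower. Called higher were then 3 eIF3 subunits, 6 other initiation factors, 2 elongation factors, 2 other TOP genes, 2 regulators and 1 snoRNA host RNA. None was called lower. In the 3 identifier series the tumor vs normal change was 0.072, 1.0 and 0.75 for Eif5a and 0.054, 0.60 and 0.47 for Eif4e. The mitochondrial ribosome, which has its own proteins, had 54 of 75 genes higher and 0 lower, with a median log2 change of 0.28, against 0.16 for the cytosolic members. After rescaling without the 11 rows its median was 0.20, against 0.066 for the cytosolic members, with 34 genes higher and 1 lower, where 11.4% of all tested genes were higher and 19% lower.

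In PanIN against normal lines, where 3.1% of all tested genes rose and 3.68% fell, none of the factor lists had a gene called higher, and the only regulator called was Tsc1, an inhibitor of mTORC1 signalling, which fell (-0.25, limma adjusted p = 0.0329). It averaged 5.16 ± 0.304 TPM in PanIN lines and 6.31 ± 0.582 TPM in normal lines. Between tumor and PanIN lines no gene of these lists was called except Mrps14 of the mitochondrial ribosome, which rose.

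Of 10 markers of proliferation, 9 rose between tumor and normal lines and 0 fell, where 17.8% of all tested genes rose and 14.4% fell. After rescaling without the 11 rows 7 were called higher and 0 lower, where 11.4% of all tested genes were higher and 19% lower. Between tumor and PanIN lines 0 were called, where 0.392% of all tested genes rose and 1.21% fell. The markers' summed level was 1550 ± 360 TPM in tumor lines (995 to 1919). It was 1006 ± 268 TPM in PanIN (763 to 1509) and 1037 ± 241 TPM in normal lines (567 to 1235). In the identifier series with tumor 4 as its only tumor line, every marker was below normal, from -0.36 (Top2a) to -0.084 (Mki67) in log2. In the other series every marker was higher, by 0.47 (Mcm2) to 1.5 (Birc5). The part of these markers in the ribosomal protein difference was not tested. All 10 ductal markers were detected, as the label of a ductal culture implies, with summed levels of 8177 ± 734, 9984 ± 1626 and 12248 ± 2140 TPM in tumor, PanIN and normal lines; Krt8, Spp1 and Krt18 fell in tumor against normal lines and Epcam in PanIN against normal lines. Of 9 listed immune markers, 2 were tested, and Csf1r was called lower in tumor and in PanIN lines against normal lines. The summed immune levels ranged over 1.49 to 3.94 TPM in tumor, 2.75 to 3.65 TPM in PanIN and 4.41 to 8.28 TPM in normal lines, with Cd3e, Lyz2 and Tyrobp at 0 in all lines. Summed markers stayed at or below 3.16 TPM for acinar cells, 2.28 for endothelial cells, 0.32 for endocrine cells and 0.23 for mesenchymal cells, with Ins1, Ins2, Gcg and Col3a1 at 0 in all lines.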

How the data were processed

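RNA-seq profiles of 19 mouse pancreatic organoid lines were used: 6 tumor, 6 PanIN and 7 normal. The authors deposited TPM values for every line. The submitters' processing notes name Bowtie 1.1.0, RSEM 1.2.11, DESeq2 1.4.1, DESeq, FastQC and the build mm9, and which gene models were used was not given in the sources. The authors' deposited table also holds, per gene and comparison, a log2 fold change, its standard error and test statistic (used as scores) and p-values with adjusted p-values. TPM keeps no depth, so the reads behind a value are unknown, no counting interval is given, and count tests planned in case of counts were not run. The number of columns of other samples is 0.

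With limma 3.58.1 (R 4.3.3), log2(TPM + 1) was modelled with 1 mean for each group, using all 19 lines and two-sided moderated tests with a trend. The Benjamini-Hochberg adjustment ran over the 12500 genes with a TPM of at least 1 in at least 6 lines. A gene was called at an adjusted p below 0.05. Because of the added 1, changes of low genes are understated. Replicate numbers are names of lines and were not treated as pairs. Group values are mean TPM ± SD. The fit was also run on simulated data in which every gene varied independently of the others. Such data hold no shift of a whole line, so they cannot test calls where many genes move together.

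The members, gene lists and rules were chosen with earlier results of these data known. Per comparison the text names up to 8 called members with the largest rise or fall (the 4 with the smallest p where fewer than 4 were called), the 6 highest and 4 lowest members by level, 11 members fixed for their role, and up to 3 genes per other list by p. Rpl10a, Rpl13a, Rpl18, Rpl23, Rpl36a, Rps7, Rps9, Rps14, Rps16, Rps27a and Rps29 and the marker genes at 0 were named after their values were seen. Alternatives were other pseudocounts, filters, scalings, covariates and weights, and lines left out. Starts and promoters came from RefSeq GRCm38.p6 by symbol (55 of 76 members matched), without converting coordinates. Other software was data.table (version 1.17.8), jsonlite 2.0.0, Python 3.11.15, pandas 2.3.3 and matplotlib 3.10.9. An allele of the tumor and PanIN mice and some members picked by the naming rule are not reported here.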

Additional observations from a re-analysis of the deposited data

Results flagged for a closer look

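A line was set apart when its gap to the nearest line of its group was large against the range of the group (Dixon's 95% limit). Of 108 group checks 5 met this, and chance alone flags about 1 in 20 groups.

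The summed ribosomal protein share of PanIN 5 was 14.55% of TPM, above the other PanIN lines (13.46% to 13.85%). After rescaling without the 11 rows, the share in normal 12 was 14.71%, below the other normal lines (17.1% to 18.44%). Normal 12 was also low for Rpl30, at 1159.84 TPM, where the next normal line had 1353.41 TPM. PanIN 5 was high for Rpl22, at 280.21 TPM, where the next PanIN line had 252.84 TPM. PanIN 6 was high for Rpl34, at 53.51 TPM, where the next PanIN line had 42.16 TPM.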

How the results depend on the processing

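Of the ribosomal protein genes called higher in tumor against normal lines, 34 as deposited, the number was 22 after rescaling without the 11 rows, 16 under quantile normalization (with 2 lower), 3 when centred on the members' median (with 5 lower), 7 without tumor 5 and tumor 8 together (added after seeing the data), and 24 to 42 with a single line left out (lowest without tumor 5 or without tumor 8, highest without normal 5). Of all tested genes, 10.6% to 22.7% were called higher with a single line left out, and 12.3%, 10.6% and 17.1% without tumor 5, tumor 8 and normal 5. The 1 call between PanIN and normal lines became 5 under median-of-ratios scaling, 4 with the identifier series as a covariate and 6 with array weights, where 4.25%, 3.55% and 4.7% of all tested genes were called higher. It became 0 with no filter on low values, under quantile normalization, when centred on the members' median, in a fit of the 2 groups alone, with sex as a covariate and without normal 11 and PanIN 6 together, and 0 to 6 with a single line left out (6 without normal 5, 2 without tumor 5, where 2.89% and 3.26% of all tested genes were called higher). The count of 0 between tumor and PanIN lines became 8 with array weights, 3 without normal 11 and PanIN 6 together, and 0 to 3 with a single line left out (3 without tumor 4 or PanIN 6, 1 without tumor 3 or normal 11). Of all tested genes 26.3%, 17.2%, 13.3%, 15.9%, 0.928% and 4.07% were called higher in these fits, in the order given, so calls rose among all genes too. No member was called lower in any fit with a single line left out (0 to 0). The cause of these shifts was not tested.

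The members' median log2 change with a single line left out was 0.118 to 0.189 in tumor against normal lines, 0.0820 to 0.149 in PanIN against normal lines (lowest without normal 12 in both) and 0.0199 to 0.0602 in tumor against PanIN lines. It was -0.026 in tumor against PanIN lines after rescaling, and -0.060, -0.0097 and -0.044 in tumor against normal, PanIN against normal and tumor against PanIN lines when centred on the members' median, a scaling that sets the family near 0. Under that centring Rps12 (-0.026), Rps27 (-0.17), Rplp2 (-0.048) and Rpl3 (-0.046) had the opposite sign between tumor and normal lines. That follows from the scaling, which lowers the change of every gene by the same amount. The sign is relative to the members' median and does not mean a fall in TPM as deposited.

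Lines share numbers across groups, and the correlations of their deviations ran from -0.307 to 0.247, so the numbers were not used as pairs. Such correlations cannot show whether lines shared a mouse or a litter. With the replicate block, a fit over 11 lines, 0 members were called in tumor against normal, 0 in PanIN against normal and 0 in tumor against PanIN lines, where 0.288%, 0.576% and 0.008% of all tested genes were called higher. Without counts, differences of single low genes cannot be set against counting error.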
